A study of Mus musculus with 20 samples.

Results

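A set of 10 genes of periosteal and tendon fibroblasts were followed in RNA-seq libraries of mouse tibiae: C1qtnf3, Cthrc1, Adam12, Postn, Tnmd, Scx, Mkx, Tnn, Tnc and Thbs2. They are 10 of the 54446 genes in the deposited table, and all 10 passed the filter on low counts in every comparison. They were picked by symbol with earlier results of these data in view, and 3 of them (C1qtnf3, Cthrc1 and Adam12) were noted because they were far lower under dexamethasone (DEX) in loaded tibiae. The values of all 10 genes in that contrast are therefore given as a description, with no p-value, and tests are given for the comparisons that remain.

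The libraries came from pulverised tibiae of male C57BL/6J mice aged 3 months, and all groups shared this strain, sex and age. In each of 4 groups there were 5 libraries: unloaded tibiae of vehicle-treated mice (Vehicle_Ctrl), loaded tibiae of vehicle-treated mice (Vehicle_Load), unloaded tibiae of DEX-treated mice (DEX_Ctrl) and loaded tibiae of DEX-treated mice (DEX_Load). DEX, a synthetic glucocorticoid, was injected subcutaneously at 1 mg/kg for 5 days, and vehicle-treated mice received water. The left tibia was loaded along its axis at -13 N for 40 cycles a session, and the right tibia was the unloaded control. The labels give sessions on days 1 and 3, whereas the study's account of this experiment gives 3 sessions a week and collection 4 hours after the last of them, on day 5, so the number of sessions and the time since the last are uncertain. The study describes these tibia samples as cortical bone with its periosteum, and does not say whether the marrow was removed. Markers of marrow cells, cartilage and muscle were counted in the libraries, so the RNA came from other cells as well as from fibroblasts. Fewer fibroblasts cannot be told apart from less RNA of these genes per fibroblast. The limbs of a mouse gave an unloaded and a loaded sample, but neither the labels nor the methods say which libraries shared a mouse, so p-values measure the spread between these libraries.

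The periosteum is the fibrous and cellular sheath of bone, and its inner layer holds progenitors that form bone and cartilage. Tendons insert through it, and both tissues are built by fibroblasts that secrete collagens together with matricellular proteins, which modulate how cells bind the matrix rather than giving it strength. Periostin, the tenascins and thrombospondin 2 are proteins of this kind and are known to be abundant in periosteum, tendon and healing connective tissue. Scleraxis and Mohawk are transcription factors of the tendon lineage, and tenomodulin is a membrane protein used as a marker of tendon cells.

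Total counts were 4641437 to 13032018 per library. Unloaded DEX replicate 4 was left out of the fits, because the study removed a DEX-4 data set and plotted 4 unloaded DEX values. The study does not say which limb DEX-4 was, so this choice is uncertain. With the library included, 6 of the 10 genes were called in unloaded tibiae, and 2922 of all genes in place of 1351. Loaded DEX replicate 4 had the lowest total. It also had the highest summed level over olfactory and vomeronasal receptor genes, which bone is not known to express and which serve as a measure of background reads, at 6508 CPM (counts per 1000000, scaled by TMM). These background reads were 391.7 to 1367 CPM in unloaded vehicle, 801.9 to 2923 CPM in unloaded DEX, 260.7 to 933.2 CPM in loaded vehicle and 1100 to 6508 CPM in loaded DEX libraries, so the loaded groups did not overlap.

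The promoters of 3 of the genes are shown. C1qtnf3 was noted for its difference in loaded tibiae, and Tnn kept its call for DEX in unloaded tibiae whichever library was left out. Postn was among the most abundant of the 10 genes. Each sequence is the 250 bases before the RefSeq transcription start, on the strand of the gene and in the 5′ to 3′ direction, from the GRCm38.p6 build. Capitals mark matches, on either strand, to CANNTG (the E-box), AGAACA (a motif of the glucocorticoid receptor), GGAATG (a motif of TEAD factors), TGANTCA (AP-1) or TATAAA (the TATA box).
C1qtnf3, chr15:10952082-10952331, plus strand: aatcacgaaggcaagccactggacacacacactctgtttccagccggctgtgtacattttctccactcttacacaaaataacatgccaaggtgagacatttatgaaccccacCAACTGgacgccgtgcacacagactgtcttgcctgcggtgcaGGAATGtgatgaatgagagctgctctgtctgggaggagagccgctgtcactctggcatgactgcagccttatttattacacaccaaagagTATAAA
Postn, chr3:54360857-54361106, plus strand: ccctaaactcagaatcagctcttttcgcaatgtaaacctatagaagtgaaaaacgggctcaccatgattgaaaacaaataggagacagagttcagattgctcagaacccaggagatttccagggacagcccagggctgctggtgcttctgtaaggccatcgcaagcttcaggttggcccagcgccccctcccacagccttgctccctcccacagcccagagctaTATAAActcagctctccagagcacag
Tnn, chr1:160153576-160153825, minus strand: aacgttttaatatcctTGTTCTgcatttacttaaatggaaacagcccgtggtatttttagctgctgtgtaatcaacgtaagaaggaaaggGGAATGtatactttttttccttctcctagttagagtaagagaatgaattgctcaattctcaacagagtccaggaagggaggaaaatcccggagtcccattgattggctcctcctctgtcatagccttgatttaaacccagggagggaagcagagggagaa
The C1qtnf3 window held CAACTG at position -138, GGAATG at -96 and TATAAA at -6, counted from the transcription start to the first base of the match. The Postn window shown held TATAAA at -26, and a second RefSeq window of Postn (chr3:54359017-54359266), not shown, held none of the motifs. The Tnn window held TGTTCT, the reverse complement of AGAACA, at -234 and GGAATG at -160. None of these matches overlapped. Among 32851 promoter windows of the same length, 66.2% held CANNTG, 16.1% AGAACA, 12.6% GGAATG, 6.75% TGANTCA and 12.4% TATAAA on either strand. RefSeq windows were found for 6 of the 10 genes: these 3, Thbs2, Tnmd and Tnc. AGAACA was found in the Tnn window alone among the 8 windows of these genes. A match is a run of letters in a window, and no binding was measured here.

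Levels between genes were compared as CPM per kilobase of exon, the union of all annotated exons of each gene. In unloaded vehicle tibiae, Tnc was highest at 177.2 ± 62.2 CPM per kilobase (SD, n = 5), followed by Postn at 100.4 ± 77.3. Thbs2 (53.4 ± 27.7) and Tnn (50.95 ± 15.03) were close to each other. The middle of the order held Cthrc1 at 25.6 ± 17.4, Adam12 at 14.4 ± 5.78, C1qtnf3 at 12.98 ± 23.4 and Tnmd at 10.2 ± 3.37 CPM per kilobase. The transcription factors were lowest, with Scx at 4.92 ± 3.09 and Mkx at 2.36 ± 0.391 CPM per kilobase. No pair of neighbours in this order differed by more than their SDs together. In loaded DEX tibiae, Tnc (95.7 ± 29.0), Postn (28.7 ± 9.41), Thbs2 (21.9 ± 8.39) and Tnn (19.8 ± 10.3) were again the 4 highest, whereas C1qtnf3 was lowest at 1.64 ± 0.687 CPM per kilobase.

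**Figure D1:**
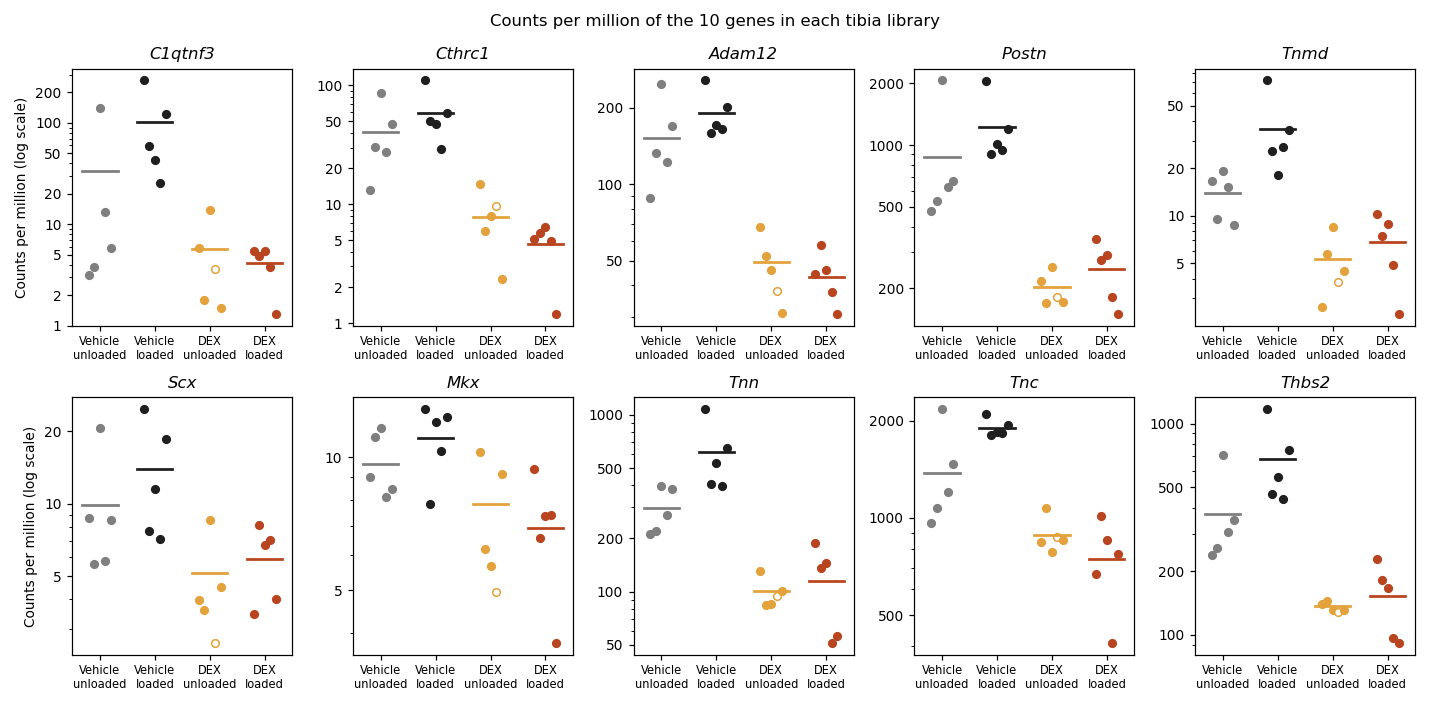
CPM of the 10 genes on a log scale in each library, by group. Points are libraries, horizontal bars are group means, and the open circle is unloaded DEX replicate 4, which is left out of the means and the fits. Unloaded vehicle replicate 4 and loaded vehicle replicate 1 are the highest libraries of their groups for all 10 genes, and the DEX groups lie lower for most genes.

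To ask whether DEX alone lowered these genes, unloaded bones were compared between the treatments. These libraries are not those of the contrast in which the 3 genes were noted, but the unloaded limb was the control within each mouse, so the animals are shared and the comparisons are not independent. Expression fell under DEX for 6 of the 10 genes (Cthrc1, Postn, Adam12, Tnn, Thbs2 and Tnmd), by 2.55-fold to 5.31-fold, and none rose. Calls came from a quasi-likelihood F test in edgeR, adjusted by Benjamini-Hochberg over all 19738 genes tested, at a threshold of 0.05. Of all genes, 6.84% passed it and 3.99% passed it with a lower level under DEX. C1qtnf3, Scx, Tnc and Mkx did not pass, and their fitted log2 fold changes were also below 0. Without the filter on low counts C1qtnf3 passed (-2.66, adjusted p = 0.0303), and when all 4 groups were fitted together Tnmd did not (adjusted p = 0.0507). The values of the groups did not overlap for 5 of the 10 genes, against 6.4% of all genes in this direction. DESeq2 called 7 of the 10 genes, with Tnc added (adjusted p = 0.0462), against 12.2% of all genes. The median log2 fold change was -1.49 over the 10 genes and 0.03 over all genes.

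Periostin (Postn, chromosome 3, 54361109 to 54391037) binds collagen and integrins and is named after the periosteum. In unloaded vehicle tibiae its level was 475.2, 531.9, 2069, 625.1 and 667.6 CPM in replicates 1, 2, 4, 5 and the library without a number. In unloaded DEX tibiae it was 217.7, 169.8, 253.6 and 171.8 CPM in replicates 1, 2, 3 and 5. Every DEX library was below every vehicle library, and vehicle replicate 4 stood far above the rest of its group. Postn fell 4.24-fold (log2 fold change -2.08, SE 0.41, edgeR adjusted p = 0.0162). Without unloaded vehicle replicate 4 the log2 fold change was -1.49 (adjusted p = 0.0103), and without unloaded DEX replicate 3 the call was lost (-2.22, adjusted p = 0.0617).

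Thrombospondin 2 (Thbs2, chromosome 17, 14665500 to 14694235) is a matricellular protein that affects the assembly of collagen fibrils. Its level was 239.7, 259.2, 712.6, 308.4 and 348.5 CPM in unloaded vehicle replicates 1, 2, 4, 5 and the unnumbered library. In unloaded DEX replicates 1, 2, 3 and 5 it was 140.6, 145.0, 130.9 and 131.2 CPM. The highest was 1.11 times the lowest, the smallest such ratio of the 10 genes. The groups did not overlap, and Thbs2 fell 2.69-fold (log2 fold change -1.43, SE 0.29, edgeR adjusted p = 0.0165). The call was lost without unloaded DEX replicate 3 (adjusted p = 0.0749).

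The tenascins are large glycoproteins of the matrix that loosen the attachment of cells. Tenascin N (Tnn, also called tenascin W, chromosome 1, 160085029 to 160153580) is found in periosteum and around forming bone. Its level was 212.0, 221.2, 397.1, 271.3 and 380.2 CPM in unloaded vehicle replicates 1, 2, 4, 5 and the unnumbered library, and 130.3, 84.48, 85.23 and 100.8 CPM in unloaded DEX replicates 1, 2, 3 and 5. The groups did not overlap, and Tnn fell 2.93-fold (log2 fold change -1.55, SE 0.22, edgeR adjusted p = 0.00603). Its call held in each of the 9 fits that left out a library, with adjusted p from 0.00611 to 0.0354. Tenascin C (Tnc, chromosome 4, 63959785 to 64047015), the most abundant of the 10 genes per length, had 1377 ± 483 CPM (SD, n = 5) in vehicle and 888 ± 126 CPM (SD, n = 4) in DEX tibiae. Its groups overlapped and it did not pass (log2 fold change -0.61, SE 0.24, adjusted p = 0.140). Exons of Tnc share 176 bases with 8030451A03Rik on the opposite strand, and the strand setting of the counting is not given in the sources used here.

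Cthrc1 (chromosome 15, 39076932 to 39087121) encodes a secreted protein with a collagen triple helix repeat that is known from wounded and remodelling tissue. Its level was 13.26, 30.12, 85.46, 27.68 and 47.54 CPM in unloaded vehicle replicates 1, 2, 4, 5 and the unnumbered library, and 14.72, 5.97, 8.029 and 2.341 CPM in unloaded DEX replicates 1, 2, 3 and 5. DEX replicate 1 lay above vehicle replicate 1, so the groups overlapped. Cthrc1 fell 5.31-fold (log2 fold change -2.41, SE 0.54, edgeR adjusted p = 0.0242). The call was lost without unloaded DEX replicate 2 (adjusted p = 0.0592), unloaded DEX replicate 3 (0.0918) or unloaded vehicle replicate 5 (0.0516). It was also lost with the replicate number as a block (adjusted p = 0.104) and in the same libraries without the block (0.0973).

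Adam12 (chromosome 7, 133883199 to 134232146) encodes a membrane-anchored metalloproteinase with a disintegrin domain, expressed by mesenchymal progenitors. Its level was 88.17, 132.8, 248.3, 122.4 and 169.9 CPM in unloaded vehicle replicates 1, 2, 4, 5 and the unnumbered library, and 67.91, 52.04, 46.07 and 31.09 CPM in unloaded DEX replicates 1, 2, 3 and 5. The groups did not overlap, and Adam12 fell 3.08-fold (log2 fold change -1.62, SE 0.28, edgeR adjusted p = 0.0106). The call was lost without unloaded DEX replicate 3 (adjusted p = 0.0553).

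C1qtnf3 (chromosome 15, 10952332 to 10980150), which encodes the secreted protein CTRP3, depended on a single unloaded library. Its level was 3.182, 3.818, 139.9, 13.26 and 5.832 CPM in unloaded vehicle replicates 1, 2, 4, 5 and the unnumbered library. In unloaded DEX replicates 1, 2, 3 and 5 it was 5.79, 1.802, 13.83 and 1.498 CPM. Apart from vehicle replicate 4, the groups covered nearly the same range. The log2 fold change was -2.54 (SE 1.14, edgeR adjusted p = 0.193) and became -0.19 (adjusted p = 0.893) without unloaded vehicle replicate 4. A fall of C1qtnf3 under DEX in unloaded tibiae was therefore not shown by the 4 vehicle libraries that remain.

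Among the tendon lineage genes, tenomodulin (Tnmd, chromosome X, 133850980 to 133865577) was called. Its level was 16.57, 9.546, 19.17, 15.32 and 8.693 CPM in unloaded vehicle replicates 1, 2, 4, 5 and the unnumbered library, and 2.654, 5.745, 8.523 and 4.495 CPM in unloaded DEX replicates 1, 2, 3 and 5. The groups came within 1 CPM of each other without overlapping, and Tnmd fell 2.55-fold (log2 fold change -1.35, SE 0.33, edgeR adjusted p = 0.0318). The call was lost in 7 of the 9 fits that left out a library (unloaded DEX replicates 1, 2, 3 and 5 and unloaded vehicle replicates 1, 4 and 5), with adjusted p from 0.0516 to 0.0691. Scleraxis (Scx, chromosome 15, 76457452 to 76459458, inside Bop1 on the opposite strand), a basic helix-loop-helix factor, did not pass (log2 fold change -0.92, SE 0.40, adjusted p = 0.177) and became -0.48 (adjusted p = 0.377) without unloaded vehicle replicate 4. Mohawk (Mkx, chromosome 18, 6934518 to 7004780), a homeobox factor whose exons share 201 bases with AC148004.2 on the same strand, had the smallest difference, with 9.67 ± 1.60 CPM (SD, n = 5) in vehicle and 7.83 ± 2.23 CPM (SD, n = 4) in DEX tibiae (log2 fold change -0.29, SE 0.21, adjusted p = 0.420).

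Unloaded DEX replicate 3 had the largest influence on these calls. Without it, 1 of the 10 genes was called and 129 of all genes, against 1351 with it, while all 10 log2 fold changes stayed below 0. With background reads as a covariate, 2 of the 10 genes (Adam12 and Tnn) were called in unloaded tibiae, while the calls over all 19738 genes rose from 1351 to 2592. Of the genes that lost their call, Cthrc1 was at -2.12 (adjusted p = 0.0936), Tnmd at -1.23 (0.0643), Postn at -1.51 (0.0675) and Thbs2 at -0.97 (0.0538). The part of background reads in these results was not tested. With library totals alone as the scaling, the median of all genes moved to 0.32 and that of the 10 genes to -1.19. Then 6 of the 10 genes were called and all 10 stayed below 0, with Mkx at -0.012. Of all called genes 10.3% were lower under DEX, against 58.3% with TMM scaling.

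**Figure D2:**
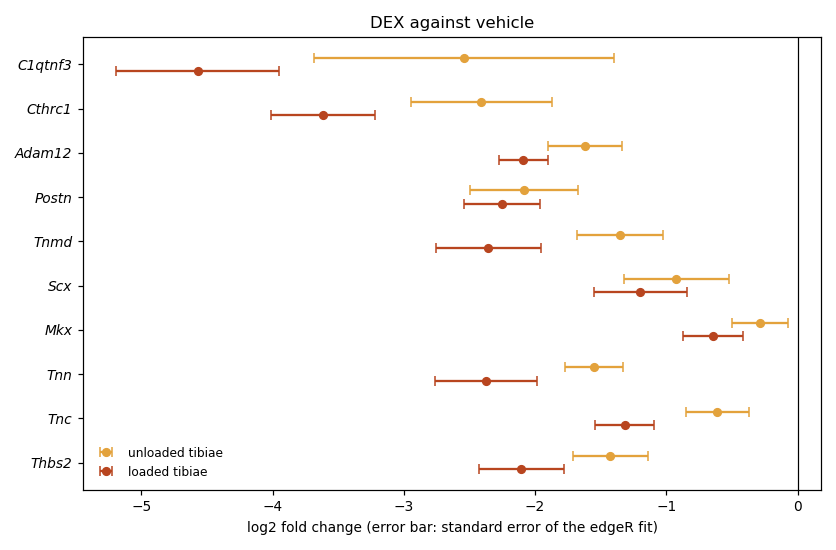
Log2 fold change of the 10 genes for DEX against vehicle in unloaded and in loaded tibiae, with the standard error of the edgeR fit as error bars. All 20 points lie below 0, and the error bar of C1qtnf3 in unloaded tibiae is the widest. The loaded values are those in which 3 of the genes were noted.

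In loaded tibiae the 10 genes were lower under DEX by 1.56-fold to 23.7-fold, as a description of the contrast in which C1qtnf3, Cthrc1 and Adam12 were noted. The median log2 fold change of the 10 genes was -2.18, against 0.004 for all 19780 genes tested. By count, 9 of the 10 genes had an adjusted p under 0.05 (21.3% of all genes in either direction, 8.35% lower) and 8 had groups that did not overlap (8.85% of all genes, lower). Because this contrast served to choose 3 of the genes, these counts describe the choice and nothing is read from them. C1qtnf3 had the largest negative log2 fold change of all genes tested and Cthrc1 the seventh, and these ranks also describe the choice.

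In loaded vehicle tibiae C1qtnf3 was at 263.6, 58.71, 42.67, 25.48 and 122.3 CPM in replicates 1, 2, 4, 5 and the unnumbered library, and in loaded DEX replicates 1 to 5 it was at 5.502, 4.899, 5.45, 3.779 and 1.3 CPM. The lowest vehicle library was above the highest DEX library, and the log2 fold change was -4.57 (SE 0.62). Cthrc1 was at 110.4, 50.11, 47.18, 29.23 and 58.55 CPM in the vehicle libraries and at 5.099, 5.781, 6.412, 4.882 and 1.192 CPM in the DEX libraries, in the same order, with a log2 fold change of -3.62 (SE 0.40). For Adam12 the vehicle libraries covered 158.6 to 255.9 CPM and the DEX libraries 30.88 to 57.81 CPM (log2 fold change -2.09, SE 0.19). None of these groups overlapped. Without loaded vehicle replicate 1, the highest library for all 3 genes, the log2 fold changes were -3.89 for C1qtnf3, -3.30 for Cthrc1 and -1.999 for Adam12.

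Among the genes that were not noted for this contrast, the log2 fold changes were -2.37 for Tnn, -2.36 for Tnmd, -2.25 for Postn, -2.11 for Thbs2 and -1.32 for Tnc, and their groups did not overlap. Tnc, for example, was at 1803 to 2094 CPM in loaded vehicle and at 409.4 to 1015 CPM in loaded DEX tibiae. Scx (-1.20) and Mkx (-0.64) had groups that overlapped. Loaded DEX replicate 5 was the lowest library of its group for 7 of the 10 genes. With background reads as a covariate, calls fell to 28 of all 19780 genes, from 4206, and to 1 of the 10. The log2 fold changes were then -2.71 for C1qtnf3, -2.98 for Cthrc1 and -1.77 for Adam12. Because background reads did not overlap between the loaded groups, their part and that of DEX cannot be told apart here.

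Loading was then compared with no loading within each treatment. In vehicle-treated mice, 0 of the 10 genes passed edgeR's adjusted test, as did 0% of all 17982 genes. All 10 fitted log2 fold changes were above 0, with a median of 0.49 against -0.002 for all genes. At an unadjusted p under 0.05, 4 of the 10 genes were higher with loading (Tnmd, Tnn, Thbs2 and Tnc), against 3.9% of all genes. DESeq2 called 2 of the 10, Tnmd (adjusted p = 0.0208) and Tnn (adjusted p = 0.0315), against 0.784% of all genes. Markers of other cells also differed between these libraries, without a call in edgeR, and their part was not tested. The summed skeletal muscle markers had a median of 32610 CPM in unloaded (9497 to 44100) and 11540 CPM in loaded vehicle tibiae (4493 to 22180), and all 10 had log2 fold changes below 0 (median -1.09). The 6 chondrocyte markers tested had a median of 1.69.

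Tnmd was at 8.693 to 19.17 CPM in unloaded and at 18.27 to 72.29 CPM in loaded vehicle tibiae (log2 fold change 1.34, SE 0.35, edgeR adjusted p = 0.278). Tnn was at 212.0 to 397.1 CPM in unloaded and at 395.5 to 1077 CPM in loaded vehicle tibiae (log2 fold change 1.02, SE 0.27, adjusted p = 0.306). Both genes therefore had loaded values that nearly cleared the unloaded range without doing so. Thbs2 had a log2 fold change of 0.84 (SE 0.33, adjusted p = 0.455) and Tnc of 0.44 (SE 0.19, adjusted p = 0.492). Loaded vehicle replicate 1 was the highest of its group for all 10 genes, and without it Tnmd stood at 0.92 (adjusted p = 0.459) and Tnn at 0.73 (adjusted p = 0.506).

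For C1qtnf3, Cthrc1 and Adam12 this comparison shares its loaded vehicle libraries with the contrast in which they were noted. C1qtnf3 had a log2 fold change of 1.61 (SE 0.98, adjusted p = 0.580), which became 3.95 (adjusted p = 0.100) without unloaded vehicle replicate 4 and 0.90 (adjusted p = 0.799) without loaded vehicle replicate 1. The loaded vehicle libraries (25.48 to 263.6 CPM) lay above 4 of the 5 unloaded ones. Cthrc1 (0.51, SE 0.43, adjusted p = 0.677) and Adam12 (0.29, SE 0.23, adjusted p = 0.658) differed by little more than their standard errors.

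In DEX-treated mice 0 of the 10 genes passed the adjusted edgeR test for loading, as did 0% of all 22541 genes. At an unadjusted p under 0.05 the count was 0 of 10, against 4.25% of all genes, and DESeq2 also called 0 of 10 and 0 of all genes. The log2 fold changes were above 0 for 5 genes and below 0 for 5, between -0.74 (Cthrc1, SE 0.47, adjusted p = 0.733) and 0.30 (Tnmd, SE 0.41, adjusted p = 0.770). Postn was at 203 ± 40.2 CPM (SD, n = 4) in unloaded and 249 ± 81.9 CPM (SD, n = 5) in loaded DEX tibiae (log2 fold change 0.26, SE 0.26, adjusted p = 0.733). C1qtnf3 was at -0.48 (SE 0.59, adjusted p = 0.755) and turned to 0.47 (adjusted p = 0.878) without unloaded DEX replicate 3. With library totals as the scaling the median of the 10 genes moved from -0.03 to 0.05 and that of all genes from 0.02 to 0.12. The summed muscle markers had a median of 3484 CPM in unloaded (1694 to 20840, unloaded DEX replicate 4 included) and 19370 CPM in loaded DEX tibiae (8831 to 25510), with no marker called. The values of C1qtnf3, Cthrc1 and Adam12 share the loaded DEX libraries with the contrast in which they were noted.

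**Figure D3:**
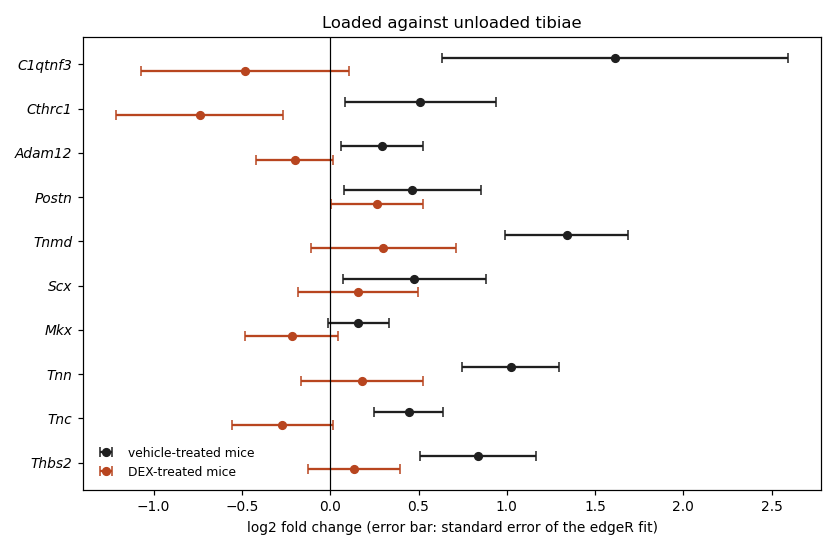
Log2 fold change of the 10 genes for loaded against unloaded tibiae in vehicle-treated and in DEX-treated mice, with the standard error of the edgeR fit. All 10 vehicle points lie above 0 and 5 of the 10 DEX points lie below 0, and no gene passed the adjusted edgeR test in either treatment.

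Whether the effect of loading differed between treatments was tested as the interaction of DEX and loading. None of the 10 genes passed, as 0% of all 23653 genes passed, and DESeq2 called 0 of the 10 and 51 of all genes. All 10 interaction terms were below 0, with a median of -0.72 against 0.07 for all genes. At an unadjusted p under 0.05, 1 gene (Tnc, -0.73, SE 0.34, adjusted p = 0.410) was lower, against 3.17% of all genes. None of the muscle or chondrocyte markers was called for the interaction, with medians of 2.29 over 10 and -2.28 over 7 genes tested. The largest terms were those of C1qtnf3 (-2.05, SE 1.34, adjusted p = 0.461), Cthrc1 (-1.24, SE 0.70, adjusted p = 0.431) and Tnmd (-1.05, SE 0.57, adjusted p = 0.427), and the first 2 were among the genes noted from libraries that enter this test. The term of C1qtnf3 was -4.42 without unloaded vehicle replicate 4, -1.15 without unloaded DEX replicate 3 and -1.32 without loaded vehicle replicate 1. Without loaded vehicle replicate 1 the terms of Postn (0.08) and Scx (0.009) were above 0, and without unloaded DEX replicate 3 that of Scx was 0.019. A different response to loading under DEX was thus not shown for any of these genes.

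The 10 genes also varied together between libraries. Unloaded vehicle replicate 4 and loaded vehicle replicate 1 were the highest of their groups for 10 of 10 genes. Their median deviations from the group mean were 0.92 and 0.90 on the log2 CPM scale, and the largest single deviation was 3.67 for C1qtnf3 in unloaded vehicle replicate 4. Loaded DEX replicate 5 had the lowest median deviation, at -0.72. In these vehicle libraries the periosteal progenitor and fibroblast list was also highest: its summed level was 16590 CPM in unloaded vehicle replicate 4 (5828 to 8636 CPM in the other unloaded vehicle libraries) and 24790 CPM in loaded vehicle replicate 1 (10790 to 17800 CPM in the others). The relatives of the 10 genes, the other tendon genes and the integrin chains were also highest in both. Neutrophil and erythroid markers were lowest there: the neutrophil sum was 4241 CPM in unloaded vehicle replicate 4 (5528 to 6352 CPM in the others) and 3823 CPM in loaded vehicle replicate 1 (4727 to 5607 CPM), and the erythroid sum was 6872 CPM (9645 to 12000 CPM) and 5125 CPM (9481 to 11440 CPM). The B cell sum was lowest in loaded vehicle replicate 1 (122.2 CPM) but not in unloaded vehicle replicate 4 (177.9 CPM, against 155.5 CPM in replicate 2). Their part in these deviations was not tested.

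**Figure D4:**
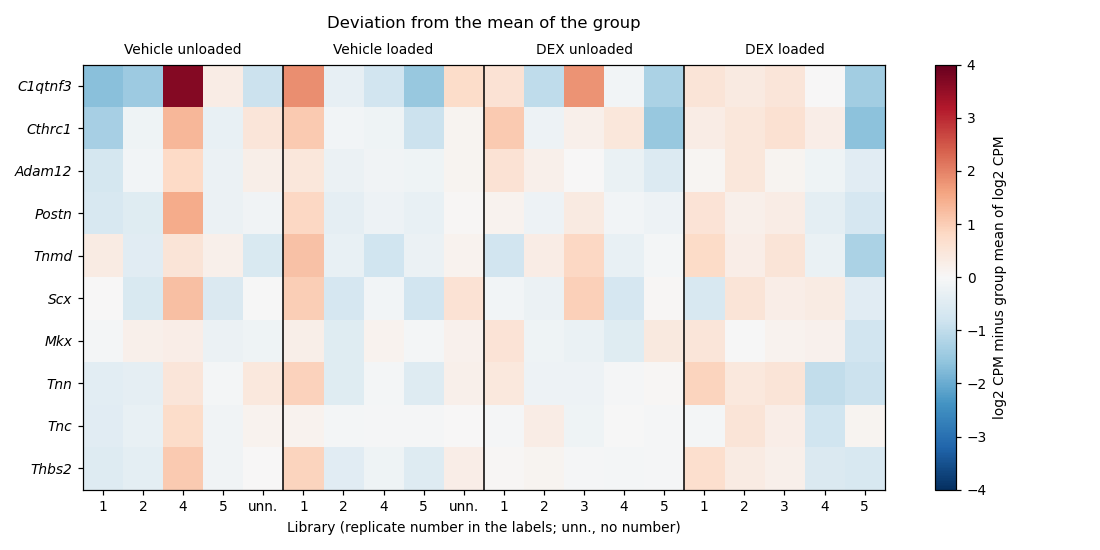
Deviation of log2 CPM from the mean of the group for the 10 genes (rows) in the 20 libraries (columns), red above and blue below the group mean. Unloaded vehicle replicate 4 and loaded vehicle replicate 1 are red in all 10 rows, with C1qtnf3 at 3.67 in the first.

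Across the 20 libraries, which share the treatment difference and the same scaling, the correlations of log2 CPM between pairs of these genes ranged from 0.56 (Mkx and Tnc) to 0.98 (Postn and Thbs2) with a median of 0.83 over 45 pairs. With the group means removed, the median was 0.59 and the range -0.02 to 0.93. Thbs2 (0.98) and Postn (0.98) followed the mean of the other 9 genes most closely, and Mkx least (0.73). The 5 genes outside the set with the highest correlation to its mean over 20 libraries were Ptgfrn (0.985), Col6a2 (0.985), Col3a1 (0.984), Col6a1 (0.982) and Fndc1 (0.978). Col3a1 encodes a fibrillar collagen of soft connective tissue, and Col6a1 and Col6a2 encode chains of collagen VI, which forms filaments around cells. Col3a1 was at 3546 CPM in unloaded vehicle, 7955 in loaded vehicle, 1019 in unloaded DEX and 1227 CPM in loaded DEX tibiae, as group means over 5 libraries with unloaded DEX replicate 4 included.

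Relatives of the 10 genes and other genes of the same tissues were read in unloaded tibiae, where the libraries, though not the mice, differ from those of the noted contrast. Of 22 family relatives, 2 fell under DEX and none rose, with a median log2 fold change of -0.17, and against 3.99% of all genes called lower this count is not read as particular to the relatives. These were C1qtnf6 (-1.84, SE 0.32, edgeR adjusted p = 0.0104), a secreted relative of C1qtnf3, and Thbs3 (-1.14, SE 0.27, adjusted p = 0.0278), a thrombospondin of cartilage and bone. Of 10 other tendon and ligament genes, 3 fell: Fmod (-1.24, SE 0.13, adjusted p = 0.00291), a small proteoglycan of collagen fibrils, Col12a1 (-1.07, SE 0.20, adjusted p = 0.0144), a collagen that decorates fibrils, and Abi3bp (-0.62, SE 0.12, adjusted p = 0.0144). The median of that list was -0.77.

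Of 20 periosteal progenitor and fibroblast genes, 9 fell, none rose and 11 did not pass, with a median log2 fold change of -0.76. The largest falls were those of Ostn (-2.39, SE 0.33, edgeR adjusted p = 0.0055), a secreted peptide of periosteal osteoblasts, Col3a1 (-1.86, SE 0.39, adjusted p = 0.0194) and Aspn (-1.78, SE 0.22, adjusted p = 0.00386), a small proteoglycan. Among receptors and signals, 1 of 8 integrin chains fell (Itga11, a collagen receptor chain, -1.04, SE 0.18, adjusted p = 0.0104), and 2 of 10 TGF-beta ligands, receptors and Smads fell, Tgfb3 (-0.78, SE 0.19, adjusted p = 0.0326) and Tgfbr2 (-0.49, SE 0.13, adjusted p = 0.0403). No member of these 2 lists rose, and their medians were -0.39 and -0.15. With 3.99% of all genes called lower, counts of 1 and 2 in lists of this size are not read further.

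**Figure D5:**
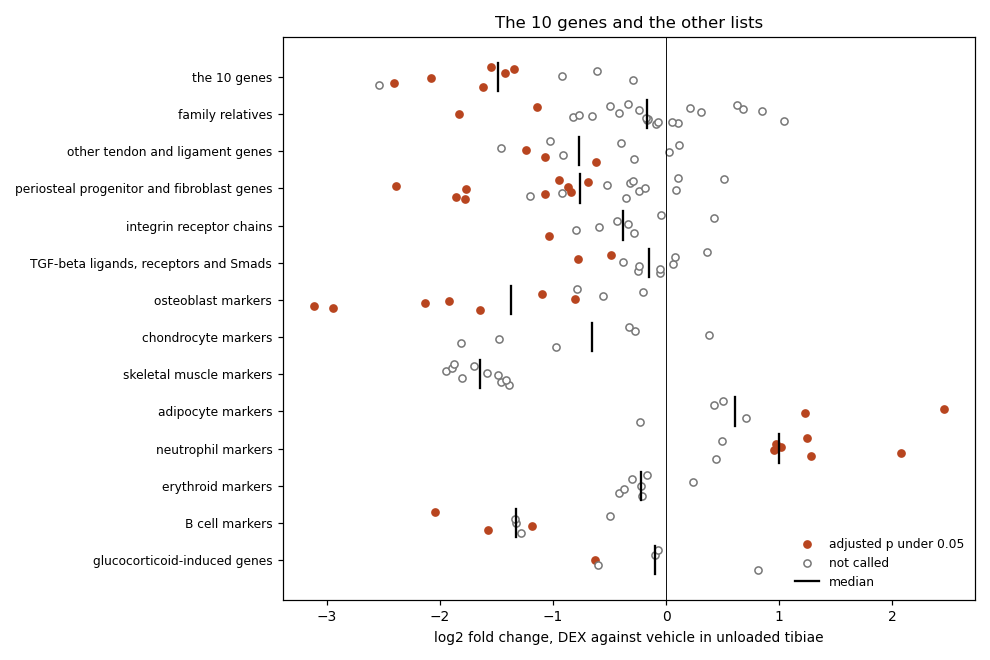
Log2 fold change for DEX against vehicle in unloaded tibiae, 1 point a gene, for the 10 genes, their relatives, related tissue genes and markers of other cell types. Filled points passed the adjusted edgeR test, and black lines are list medians. The median of the 10 genes is -1.49 and that of the periosteal list -0.76.

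Markers of other cells moved in the same comparisons, and their part in the results on the 10 genes was not tested. Over all 19738 genes tested in unloaded tibiae, 787 (3.99%) were called lower under DEX and 564 higher. In unloaded tibiae, 7 of 10 osteoblast markers fell under DEX (median -1.37, among them Bglap2 at -3.11, adjusted p = 0.0144, Bglap at -2.95, adjusted p = 0.0121, and Col1a1 at -2.14, adjusted p = 0.0418), and their summed level was 41890 to 145900 CPM in vehicle and 6597 to 35940 CPM in DEX libraries, with no overlap. None of the 10 skeletal muscle markers was called (median -1.64, Myh4 at -1.95, adjusted p = 0.0773, and Myh1 at -1.49, adjusted p = 0.245). Their sum ran from 9497 to 44100 CPM in vehicle and from 2798 to 20840 CPM in the 4 DEX libraries of the fit. Neutrophil markers rose for 6 of 8 (median log2 fold change 1.00, Mmp8 at 2.08, adjusted p = 0.00386, Ltf at 1.29, adjusted p = 0.0401, and S100a9 at 1.25, adjusted p = 0.0167), and 3 of 7 B cell markers fell (median -1.33, Vpreb3 at -2.05, adjusted p = 0.021, Cd79a at -1.58, adjusted p = 0.0322, and Cd79b at -1.19, adjusted p = 0.0415). Of 6 adipocyte markers 2 rose, Lep at 2.46 (adjusted p = 0.00386) and Cidec at 1.23 (adjusted p = 0.0469). None of 6 chondrocyte markers tested was called (median -0.65, Col11a2 at -1.81, adjusted p = 0.0502, and Col2a1 at -1.47, adjusted p = 0.092), nor any of 7 erythroid markers tested (median -0.22, Hba-a2 at -0.22, adjusted p = 0.705, and Hba-a1 at -0.37, adjusted p = 0.608). Of 5 genes known to be induced by glucocorticoids, 1 was called, Sgk1, which fell (-0.63, adjusted p = 0.0318). Fkbp5 was at 0.81 (adjusted p = 0.0603) and Zbtb16 at -0.07 (adjusted p = 0.836), both chosen after their values were seen. Per1 was at -0.60 (adjusted p = 0.347) and Tsc22d3 at -0.1 (0.798), and the median of this list was -0.1.

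In loaded tibiae 9 of 10 osteoblast markers (median -1.63), 7 of 7 chondrocyte markers tested (median -3.29) and 6 of 7 B cell markers (median -1.77) were called lower under DEX, and 6 of 8 neutrophil markers (median 1.06) and 3 of 6 adipocyte markers (median 0.66) were called higher. Over all 19780 genes of this contrast 21.3% were called, 1652 (8.35%) of them lower and 2554 higher. The summed chondrocyte markers were 1499 to 3124 CPM in loaded vehicle and 146 to 704.3 CPM in loaded DEX libraries. With background reads as a covariate, 28 of all genes were called in loaded tibiae, against 4206. Background reads did not overlap between the loaded groups, so their part and that of DEX cannot be told apart for these markers either. Of 10 skeletal muscle markers 1 was called higher (median 0.53). Of the 5 glucocorticoid-induced genes, Fkbp5 (0.87, adjusted p = 0.00777) and Zbtb16 (1.01, adjusted p = 0.0093) were called higher under DEX in loaded tibiae. The others were not called: Sgk1 was at -0.015 (adjusted p = 0.960), Per1 at -0.56 (0.107) and Tsc22d3 at 0.098 (0.774). The median of this list was 0.098. No list had a marker at 0 in all libraries of a group.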

How the data were processed

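Total RNA libraries were made from pulverised tibiae with a stranded kit for low input and sequenced on an Illumina instrument. The authors deposited expected counts per gene, estimated reads that were not scaled for library size. The submitters' processing notes name STAR 2.7.10a, RSEM 1.2.28 and GRCm38, and the annotation and strand setting are not given in the sources used here. The expected counts were rounded to whole numbers. Library totals were 4641437 to 13032018, and no intervals were computed from depth. Unloaded DEX replicate 4 was left out. The column numbered 6 in each vehicle group matched no sample label and is called unnumbered.

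Groups were compared in edgeR 4.0.16 (R 4.3.3) by the quasi-likelihood F test. Genes were filtered with filterByExpr, libraries were scaled by TMM, and p-values were adjusted by Benjamini-Hochberg over every gene tested, with calls at 0.05. A standard error is the size of the log2 fold change over the square root of its F statistic. CPM were scaled by TMM with a common filter that left 22659 genes for all 20 libraries, and log2 CPM had 2 counts added. The alternatives were DESeq2 1.42.0 with the Wald test, its size factors in edgeR, library totals without TMM, a filter of 1 count over all libraries, a filter of 10 counts in each library, all 4 groups in the same model, unloaded DEX replicate 4 included, loaded DEX replicate 4 left out in its place, each library left out in turn, the replicate number as a block and background reads as a covariate. The libraries of the block without the block were added after seeing the data. The tests were checked on simulated counts in which 200 genes were changed by a log2 fold change of 2 in either direction. For DEX in unloaded tibiae, edgeR called 168 changed and 13 unchanged genes, and DESeq2 179 and 33. For loading in vehicle-treated mice, edgeR called 178 and 8, and DESeq2 178 and 29. DESeq2 thus called more unchanged genes, and its calls in the results carry that limit.

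The 10 genes and all lists were chosen with earlier results of these data known. From each list of other genes, the 3 largest rises and 3 largest falls among genes called in unloaded tibiae were named, and where none was called the 2 genes with the highest mean CPM. Fkbp5, Zbtb16, Per1 and Tsc22d3 are outside this rule. The genes most like the 10 were the 5 with the highest Pearson correlation to their mean log2 CPM. Positions come from GENCODE M21 on GRCm38, which gave names for 54409 of 54446 identifiers.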

Additional observations from a re-analysis of the deposited data

Results flagged for a closer look

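In 40 sets of 5 libraries (10 genes in 4 groups), 5 held a library whose gap to its nearest neighbour took up an unusual share of the range of the group by Dixon's criterion. Chance alone flags about 1 in 20 sets, and the 10 genes vary together, so these are not independent. Unloaded vehicle replicate 4 was flagged for C1qtnf3 (139.9 CPM, next 13.26), Postn (2069 CPM, next 667.6), Scx (20.63 CPM, next 8.751) and Thbs2 (712.6 CPM, next 348.5). Loaded vehicle replicate 1 was flagged for Postn (2047 CPM, next 1193).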

How the results depend on the processing

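The log2 fold changes of all 10 genes stayed below 0 in both DEX comparisons under every alternative run. In unloaded tibiae some came near 0: Mkx was at -0.012 (edgeR adjusted p = 0.973) with library totals. C1qtnf3 was at -0.186 (edgeR adjusted p = 0.96) with the background covariate. With background reads as a covariate, 2 of the 10 genes were called in unloaded tibiae (against 6) and 1 in loaded tibiae (against 9), and the interaction terms of Postn (0.127) and Scx (0.132) turned above 0, and the cause was not tested. Counts in loaded tibiae describe the contrast that served to choose 3 of the genes and bear on no test. DESeq2 called 2 genes for loading in vehicle-treated mice, against 0 by edgeR. Leaving out each library in turn, the count in unloaded tibiae ran from 1 to 6. For loading in DEX-treated mice it gave log2 fold changes of -0.001 to 0.51 (Scx), -0.795 to 0.47 (C1qtnf3), -0.047 to 0.383 (Tnn) and -0.037 to 0.281 (Thbs2), and interaction terms of -0.803 to 0.082 (Postn) and -0.781 to 0.019 (Scx). The sign changed for loading in DEX-treated mice without unloaded DEX replicate 2 (Scx), unloaded DEX replicate 3 (C1qtnf3) and loaded DEX replicate 1 (Tnn and Thbs2).

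Over all genes, 1351 were called in unloaded tibiae, against 2411 by DESeq2, 3323 with library totals, 2922 with unloaded DEX replicate 4 included, 2592 with the covariate and 129 to 1867 with a library left out (129 without unloaded DEX replicate 3, 530 without unloaded vehicle replicate 5, 828 without unloaded DEX replicate 2 and 830 without unloaded vehicle replicate 4). With library totals the median log2 fold change of all genes in loaded tibiae moved from 0.004 to 0.279. In loaded tibiae 4206 were called, against 9016 without the filter and 2203 with at least 10 counts in every library. The count was 8446 with all 4 groups in the same model, 28 with the covariate and 2696 without the unnumbered loaded vehicle library. Called genes that were lower made up 39.3% in loaded tibiae and 14.8% with library totals. Without unloaded DEX replicate 5, 39 of all genes were called for loading in DEX-treated mice and 54 for the interaction. The main fits gave 0 in each, and none of the 10 genes was among those called.

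The deviations of libraries with the same number had correlations of -0.339 to 0.359 in vehicle groups (3 of 5 below 0) and 0.02 to 0.367 in DEX groups (all 5 above 0). Not every library correlated best with its own number (unloaded DEX replicate 1 had 0.63 with loaded DEX replicate 4), and the numbers were not taken to pair the libraries. With the replicate number as a block, 5 of the 10 genes were called in unloaded tibiae, with Cthrc1 lost, as without the block in the same libraries (5), and 8 in loaded tibiae (8). Over all genes the block gave 520 and 2326 calls, against 566 and 1120 without it. DESeq2 gave no adjusted p for C1qtnf3 in unloaded tibiae. Alternatives that equal the reported fit or another alternative were not run again.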
